A study of Mus musculus with 35 samples.

Results

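Type I interferon-stimulated genes are the genes that cells switch on when type I interferon binds its receptor. A list of 50 such genes was used, and 47 of them were measured in the deposited table, out of 19938 genes named there by a single symbol. Isg15 and Ifi204 were covered only by transcript clusters (the array's gene-level probe sets) that carry several gene symbols, and Ifi44 was not found in the annotation used here, so these 3 are not analysed here. The RNA came from type 1 conventional dendritic cells (cDC1) sorted from mouse spleen, a dendritic cell type specialised in showing antigens of engulfed cells to CD8 T cells. It was hybridised to 35 Affymetrix arrays in 8 groups.

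Resting cells came in 2 sets. Set 1 held 4 arrays of Mycl KO mice, which carry a GFP allele on both copies of Mycl (MyclGFP/GFP), and 5 arrays of heterozygous mice (MyclGFP/+). Set 2 held 5 arrays of Mycl KO and 5 of WT mice (Mycl+/+). Set 3 held 5 arrays labelled Mycl KO and 5 WT arrays from mice injected into the peritoneum with 100 µg of poly IC, 5 h before the spleens were taken. The Mxd1 set held 3 arrays labelled Mxd1 KO (Mxd1-/-) and 3 WT arrays (Mxd1+/+) taken 18 h after the same dose. Mycl and Mxd1 encode transcription factors that bind DNA together with MAX, the first as a MYC family activator and the second as a repressor. The labels name no deletion restricted to a cell type, so cells other than cDC1 may carry the alleles too. The labels give no age, no sort gate and no statement that each replicate is a separate mouse, so p-values measure the spread between these arrays.

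Poly IC is a synthetic double-stranded RNA that is sensed by TLR3 in endosomes and by RIG-I-like receptors in the cytosol. Sensing leads to the release of type I interferon, which binds IFNAR and activates a transcription factor complex that contains IRF9. That complex binds the interferon-stimulated response element (ISRE) in promoters and turns on genes that block virus replication at many steps. Resting cells hold a low tonic level of the same programme. cDC1 are known for high TLR3, and poly IC is widely used to activate them.

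The deposited values are log2 signals normalized by RMA. Array medians differed between the 4 sets and little within them, so the sets were treated as normalized separately. Within a set, values are given as log2 signal. Across sets, they are given as the centred level, which is the log2 signal minus the median of the same array, and carry no test. Mycl itself had log2 signals of 6.78 to 7.11 in KO and 9.65 to 9.93 in heterozygous arrays of set 1, and of 5.51 to 5.80 in KO and 9.55 to 9.79 in WT arrays of set 2. In set 3 the arrays labelled KO had 5.84, 5.99, 8.87, 5.52 and 6.14, against 9.03 to 9.81 in WT, so the library labelled Mycl KO replicate 3 lay near the WT level. Mxd1 had log2 signals of 10.64, 10.49 and 10.41 in the arrays labelled Mxd1 KO and 11.03, 10.81 and 10.63 in WT arrays, a small difference for a deleted gene. Whether the Mxd1 cluster lies in the deleted part is not given in the sources used here. Over 12 cDC1 markers the median centred level was 4.44 to 5.16 on every array. The medians of the markers for cDC2, T and NK cells and erythroid cells were at or below 0.26 on every array, and those for pDC, monocytes and macrophages, neutrophils and B cells were at or below 1.44. The highest of these came from neutrophil markers in set 3, which had medians of -0.26 to 1.44, against -1.14 to -0.47 in the other sets.

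In set 3, WT replicates 1 and 4 stood apart from the other 8 arrays in nearly all interferon-stimulated genes. The 2 arrays were set apart by the genes described here, so values without them are given as a description and not as a test of that difference. Their cDC1 marker medians were 4.75 and 5.03, against 4.44 to 4.67 on the other 8 arrays. The medians of 12 poly IC activation genes (such as Cd40, Ccr7 and Il12b) were 4.08 and 4.34 on them, against 5.54 to 6.02. The neutrophil marker medians were -0.26 and 0.55, against 0.08 to 1.44. The part of these differences in the results was not tested.

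Promoter sequences show where the interferon response element lies in these genes. RefSeq promoters (GRCm38.p6, 250 bases before to 50 after the start) were held for 40 of the 50 listed members. The ISRE core, searched on both strands as GAAA, any 2 bases and GAAA again, was present in 16 of the 40 (40.0%), against 3.99% of all 27025 genes with a promoter. A longer form, GAAA, any 2 bases and GAAACT, always contains a core and was present in 7 of the 40 (17.5%), against 0.303% of all genes. CACGTG, the E-box bound by MYC and MXD proteins with MAX, was present in 1 (2.5%), against 8.09%. A match describes the letters in this window and says nothing of binding.

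The windows below cover the 160 bases before the start of 4 members with a strong response to poly IC and of the member with the E-box, with the ISRE core, or for Trim25 the E-box, in capitals. They lie at chr19:34640729-34640888 on the plus strand (Ifit1), chr19:34583369-34583528 on the plus strand (Ifit3), chr5:120777660-120777819 on the minus strand (Oas3), chr12:26456453-26456612 on the minus strand (Rsad2) and chr11:88999243-88999402 on the plus strand (Trim25).
Ifit1: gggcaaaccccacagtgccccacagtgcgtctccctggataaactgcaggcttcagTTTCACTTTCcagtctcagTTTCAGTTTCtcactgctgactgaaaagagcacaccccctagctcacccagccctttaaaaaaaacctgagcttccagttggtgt
Ifit3: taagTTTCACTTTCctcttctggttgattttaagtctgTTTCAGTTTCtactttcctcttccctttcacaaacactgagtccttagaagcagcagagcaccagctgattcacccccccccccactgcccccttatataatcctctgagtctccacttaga
Oas3: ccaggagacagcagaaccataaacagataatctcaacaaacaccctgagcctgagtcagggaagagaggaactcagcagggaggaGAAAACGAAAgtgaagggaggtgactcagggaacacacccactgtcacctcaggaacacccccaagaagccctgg
Rsad2: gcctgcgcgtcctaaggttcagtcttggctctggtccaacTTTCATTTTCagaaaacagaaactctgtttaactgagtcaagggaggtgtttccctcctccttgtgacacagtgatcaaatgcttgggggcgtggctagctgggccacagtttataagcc
Trim25: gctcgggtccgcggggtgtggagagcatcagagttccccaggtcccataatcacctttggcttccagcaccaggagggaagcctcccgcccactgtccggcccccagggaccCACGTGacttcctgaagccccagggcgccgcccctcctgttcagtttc

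Ifit1 and Ifit3 each hold a pair of cores on the TTTC strand within this window, and Oas3 and Rsad2 hold 1 each. Bst2, which encodes tetherin, and Ddx60, a helicase linked to RNA sensing, also hold pairs, and in Bst2 the 2 cores overlap. Those windows lie at chr8:71537473-71537632 on the minus strand and chr8:61927927-61928086 on the plus strand, and Ifi213, an AIM2-like receptor gene, holds 1 core at chr1:173599273-173599432 on the minus strand.
Bst2: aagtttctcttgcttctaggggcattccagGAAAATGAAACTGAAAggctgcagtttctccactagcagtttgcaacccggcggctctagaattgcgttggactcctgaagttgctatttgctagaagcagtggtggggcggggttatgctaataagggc
Ddx60: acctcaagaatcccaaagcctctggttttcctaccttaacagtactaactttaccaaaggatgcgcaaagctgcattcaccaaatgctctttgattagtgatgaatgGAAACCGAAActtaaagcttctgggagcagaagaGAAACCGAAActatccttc
Ifi213: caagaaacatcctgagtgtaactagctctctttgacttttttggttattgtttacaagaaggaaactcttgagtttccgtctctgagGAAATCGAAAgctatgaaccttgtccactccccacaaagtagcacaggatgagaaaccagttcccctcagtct
The 15 measured members with a core had a median response to 5 h poly IC of 2.99 in cells labelled Mycl KO (centred level, 5 h minus rest), from -0.0034 (Trim21), with Ifit1 highest. The 23 without a core in this window had a median of 2.67 (0.21 to 5.57). Ifit1, Ifi213 and Ddx60, which hold cores, were under the level of the low-value filter at rest, and with these 3 set to that level the median with a core was 2.70. Some members are neighbours in the genome with at most 2 protein-coding genes between them. These were Rsad2 and Cmpk2 on chromosome 12, Parp14, Dtx3l and Parp9 on chromosome 16, Ifit2 and Ifit3 on chromosome 19, and Oasl1 with Oasl2 and Oas2 with Oas3 on chromosome 5.

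The level of the interferon-stimulated genes was lowest at rest, highest at 5 h and between the 2 at 18 h. The median centred level over the 47 members was 1.77 to 1.83 in Mycl KO and 1.68 to 1.88 in heterozygous arrays of set 1. In set 2 it was 1.86, 2.01, 2.09, 1.96 and 2.32 in KO and 1.81 to 2.01 in WT arrays. After 5 h of poly IC it was 5.30, 5.17, 4.96, 4.93 and 5.06 in the arrays labelled KO and 2.67, 4.97, 4.93, 3.50 and 5.15 in WT arrays. After 18 h it was 3.28, 3.125 and 2.94 in the arrays labelled Mxd1 KO and 3.12, 3.20 and 2.99 in WT arrays. WT replicate 1 of set 3 thus lay below all 18 h arrays, and WT replicate 4 lay between the 18 h arrays and the other 8 arrays of its set. In bulk RNA, fewer responding cells and less RNA per cell cannot be told apart.

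**Figure D1:**
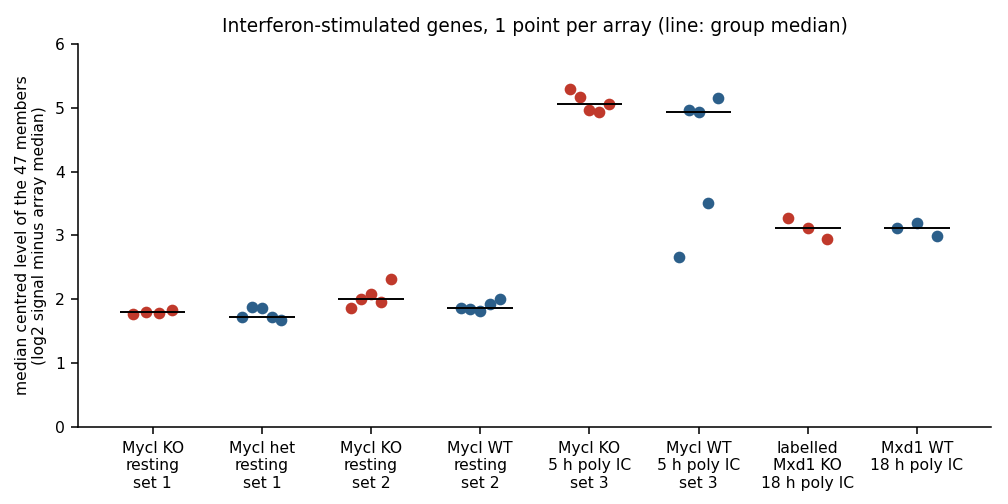
Median centred level (log2 signal minus the array median) over the 47 measured interferon-stimulated genes, 1 point for each of the 35 arrays, by group, with a line at the group median. Resting arrays lie between 1.68 and 2.32, 18 h arrays between 2.94 and 3.28, and 8 of the 10 arrays at 5 h between 4.93 and 5.30, with WT replicates 1 and 4 at 2.67 and 3.50.

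Because the sets were normalized separately, the size of set-to-set shifts was read from resting cells. Between the 2 resting sets the centred medians of the members differed by a median of 0.225 (set 1 heterozygous minus set 2 WT) and 0.268 (Mycl KO in both) in absolute size, and by at most 1.04 (Trim21) and 1.05 (Trim25). The response to 5 h poly IC was far larger for most members. In cells labelled Mycl KO, the centred median at 5 h was above that at rest by a median of 2.91 over the 47 members, from -0.0034 (Trim21) to at least 6.52 (Ifit1), against -0.0437 over all 14252 genes. For 45 of the 47 every 5 h array was above every resting array, where this held for 24.1% of all genes. The 2 others were Irf9 and Trim21. Ifit1, Ifi213, Ddx60 and Rtp4 did not pass the filter at rest, where their probes may be near background, so their responses are given as lower bounds. These set the resting value to the filter level of each array, the 30th percentile of named clusters, wherever the value lay under it. With the 4 at their bounds the median over the members was 2.71. Without the library labelled KO replicate 3 it was 2.96 with the 4 as measured, 45 members again did not overlap, and no member moved by more than 0.24.

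In WT cells the median over the members was 2.58 (2.55 over all 47 with the 4 at their bounds), from -0.1759 (Trim21) to at least 6.07 (Ifit1), and 38 of the 46 that passed the filter did not overlap with rest, against 17.6% of all genes. Without the 2 low arrays the median was 2.72, and 45 of 47 did not overlap, against 27.5% of all genes. The responses as measured ranked the members almost identically in cells labelled KO and in WT cells, with Pearson's r of 0.993 and Spearman's rho of 0.992 across 47 genes. The genes share the same arrays within each group and are not independent replicates.

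At 18 h, 40 of the 47 members had a WT median between those at rest and 5 h. The centred median at 18 h minus that at 5 h had a median of -1.38 over the members, from -3.57 (Ms4a4c) to 0.27 (Epsti1), against 0.015 over all genes. For 9 of the 47 every 18 h array was below every 5 h array, against 21.5% of all genes. Without the 2 low arrays this held for 45 of the 47, against 29.7% of all genes, and the exceptions were Trim21 and Epsti1. Against rest, the 18 h median was 1.27 higher over the members (1.20 with the 4 at their bounds), and 40 lay above rest without overlap (22.8% of all genes). Trim25, Trim30a and Samd9l lay below rest without overlap (29.8% of all genes). The differences of Trim25 (-0.82) and Trim30a (-0.23) were smaller in size than their shifts between the resting control groups (0.93 and -0.65). For Samd9l the difference (-0.71) was larger in size than that shift (0.22). The 18 h arrays form a set of their own, so time and set cannot be told apart.

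**Figure D2:**
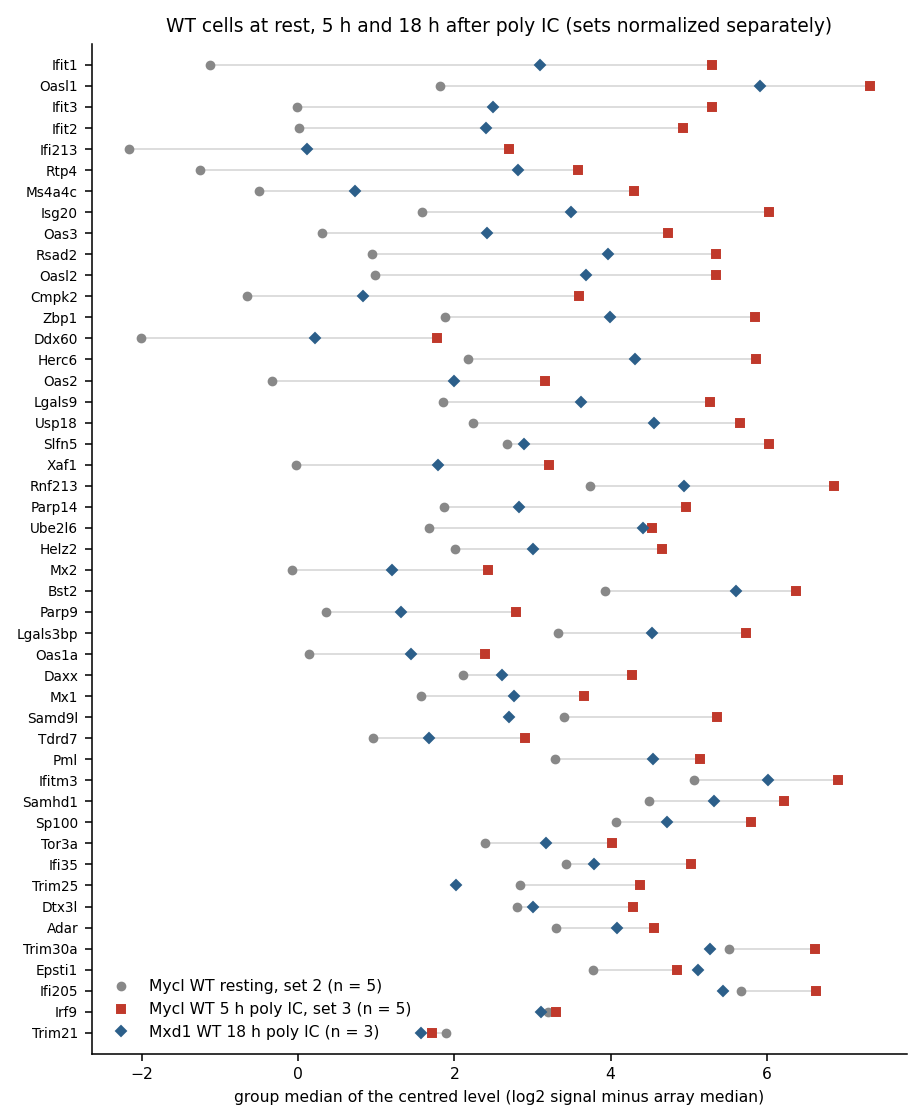
Group median of the centred level for each measured member in WT cells at rest (set 2, n = 5), 5 h (set 3, n = 5) and 18 h after poly IC (n = 3), with members ordered by the 5 h minus rest difference. The 18 h diamond lies between the resting circle and the 5 h square for 40 of the 47 members. It lies above both for Epsti1 and below both for Trim25, Samd9l, Trim21, Trim30a, Ifi205 and Irf9, and for Trim21 and Irf9 the 3 symbols lie close together.

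The IFIT proteins bind viral RNA and keep it off the ribosome, and their 3 genes had the strongest response of all roles, with a median of 5.50 in cells labelled KO and 5.32 in WT cells (5 h minus rest, centred). Ifit1, whose product binds RNA that lacks the methylated host cap, had resting centred levels of -1.27, -1.17, -1.09 and -1.41 in Mycl KO and -1.42, -1.64, -1.35, -1.53 and -1.46 in heterozygous arrays of set 1. In set 2, Ifit1 stood at -1.20, -1.10, -0.88, -1.09 and -1.05 in KO and -1.10, -1.24, -1.13, -1.28 and -0.999 in WT arrays (centred). After 5 h, Ifit1 reached centred levels of 6.02, 5.80, 5.50, 5.42 and 5.74 in arrays labelled KO, against 0.57, 5.31, 5.29, 1.78 and 5.75 in WT arrays. In every resting array Ifit1 lay below the array median, and its median in arrays labelled KO at 5 h was at least 91.5-fold above rest on the linear scale, against the filter level. At 18 h, Ifit1 had 2.99, 2.84 and 2.62 in arrays labelled Mxd1 KO and 3.46, 3.10 and 2.99 in WT arrays (centred). Ifit3, which stabilises Ifit1 in RNA binding, had resting centred levels of -0.39, -0.34, -0.41 and -0.28 in KO and -0.36, -0.38, -0.54, -0.58 and -0.43 in heterozygous arrays of set 1. In set 2, Ifit3 stood at 0.08, -0.23, -0.04, -0.02 and -0.01 in KO and -0.02, -0.02, 0.003, -0.06 and 0.10 in WT arrays (centred). After 5 h, Ifit3 had centred levels of 5.76, 5.63, 5.48, 5.27 and 5.28 in arrays labelled KO and 0.99, 5.42, 5.30, 2.75 and 5.45 in WT arrays. The 8 concordant arrays spanned 5.27 to 5.76, and WT replicates 1 and 4 lay far below that span. At 18 h, Ifit3 had 2.47, 2.43 and 2.19 in arrays labelled Mxd1 KO and 2.81, 2.50 and 2.41 in WT arrays (centred), with a WT difference of -2.80 from 5 h.

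Synthetases of the OAS family sense double-stranded RNA and make oligoadenylates that switch on RNase L. The 5 measured genes of the family, OAS-like genes included, had a median 5 h response of 4.29 in cells labelled KO and 4.37 in WT cells (centred). Oasl1, which in mouse represses translation of Irf7 and so limits interferon production, had resting centred levels of 1.902, 1.85, 1.84 and 1.79 in KO and 1.75, 1.86, 1.71, 1.72 and 1.47 in heterozygous arrays of set 1. In set 2, Oasl1 stood at 1.83, 1.55, 1.36, 1.96 and 2.26 in KO and 1.88, 1.53, 1.81, 1.33 and 2.07 in WT arrays (centred). After 5 h, Oasl1 had centred levels of 7.48, 7.61, 7.40, 7.38 and 7.29 in arrays labelled KO and 3.55, 7.32, 7.40, 5.29 and 7.53 in WT arrays. For Oasl1, WT replicate 4 lay between WT replicate 1 and the other 8 arrays. At 18 h, Oasl1 had 5.90, 5.63 and 5.53 in arrays labelled Mxd1 KO and 6.18, 5.91 and 5.43 in WT arrays (centred), the WT median still 4.10 above rest. Oas3, a synthetase that prefers long double-stranded RNA, had resting centred levels of -0.10, 0.03, -0.09 and -0.27 in KO and -0.12, 0.05, -0.004, -0.15 and -0.11 in heterozygous arrays of set 1. In set 2, Oas3 stood at 0.30, 0.26, 0.002, 0.48 and 0.37 in KO and 0.26, 0.26, 0.48, 0.42 and 0.31 in WT arrays (centred). After 5 h, Oas3 had centred levels of 5.21, 4.96, 4.96, 4.93 and 4.70 in arrays labelled KO and 0.64, 4.80, 4.74, 3.50 and 5.05 in WT arrays. WT replicate 4 was at -1.42 and WT replicate 1 at -4.29 against the KO median (log2 signal). At 18 h, Oas3 had 2.82, 2.58 and 2.41 in arrays labelled Mxd1 KO and 2.42, 2.57 and 1.95 in WT arrays (centred).

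Antiviral enzymes of nucleotide and RNA metabolism split into strong and weak responders, with 5 h responses in cells labelled KO from 1.17 (Adar) to 4.75 (Rsad2). Rsad2, which encodes viperin and makes a chain-terminating nucleotide, had resting centred levels of 0.44, 0.53, 0.60 and 0.58 in KO and 0.55, 0.41, 0.62, 0.32 and 0.27 in heterozygous arrays of set 1. In set 2, Rsad2 stood at 0.67, 0.86, 0.93, 1.01 and 1.23 in KO and 1.01, 0.74, 0.94, 0.82 and 1.10 in WT arrays (centred). After 5 h, Rsad2 had centred levels of 6.07, 5.99, 5.68, 5.59 and 5.57 in arrays labelled KO and 1.63, 5.40, 5.35, 2.34 and 5.80 in WT arrays. Unlike Oas3, Rsad2 was low to a similar degree in both low WT arrays. At 18 h, Rsad2 had 3.73, 3.55 and 2.94 in arrays labelled Mxd1 KO and 4.23, 3.96 and 3.65 in WT arrays (centred). Cmpk2, its genomic neighbour and a mitochondrial nucleotide kinase, had resting centred levels of -0.61, -0.56, -0.62 and -0.58 in KO and -0.64, -0.62, -0.58, -0.63 and -0.67 in heterozygous arrays of set 1. In set 2, Cmpk2 stood at -0.51, -0.42, -0.24, -0.09 and 0.23 in KO and -0.78, -0.70, -0.53, -0.53 and -0.66 in WT arrays (centred), where KO and WT did not overlap. After 5 h, Cmpk2 had centred levels of 4.43, 3.99, 3.77, 3.73 and 3.87 in arrays labelled KO and 0.89, 3.65, 3.59, 1.72 and 4.05 in WT arrays. Cmpk2 and Rsad2 showed the same pattern over the 10 arrays at 5 h, with replicates 1 and 4 of WT apart. At 18 h, Cmpk2 had 0.80, 0.82 and 0.71 in arrays labelled Mxd1 KO and 0.65, 0.91 and 0.83 in WT arrays (centred).

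Samhd1, the enzyme that depletes deoxynucleotides and restricts retroviruses, had resting centred levels of 4.74, 4.70, 4.64 and 4.64 in KO and 4.55, 4.70, 4.96, 4.53 and 4.18 in heterozygous arrays of set 1. In set 2, Samhd1 stood at 4.66, 4.64, 4.40, 4.55 and 4.57 in KO and 4.55, 4.51, 4.43, 4.50 and 4.46 in WT arrays (centred). After 5 h, Samhd1 had centred levels of 6.42, 6.36, 6.29, 6.29 and 6.20 in arrays labelled KO and 4.95, 6.23, 6.26, 5.60 and 6.32 in WT arrays. The 5 h response was only 3.29-fold in cells labelled KO on the linear scale, and the low arrays were still visible. At 18 h, Samhd1 had 5.34, 5.31 and 5.27 in arrays labelled Mxd1 KO and 5.47, 5.33 and 4.94 in WT arrays (centred). Adar, which edits adenosines in double-stranded RNA, had resting centred levels of 3.01, 2.998, 2.97 and 2.99 in KO and 2.92, 3.04, 3.05, 3.06 and 2.98 in heterozygous arrays of set 1. In set 2, Adar stood at 3.43, 3.63, 3.36, 3.52 and 3.52 in KO and 3.30, 3.34, 3.24, 3.26 and 3.41 in WT arrays (centred). After 5 h, Adar had centred levels of 4.94, 4.81, 4.64, 4.69 and 4.59 in arrays labelled KO and 3.53, 4.62, 4.56, 3.88 and 4.78 in WT arrays. Its 8 concordant arrays lay within 4.56 to 4.94, above both low WT arrays. At 18 h, Adar had 4.10, 3.99 and 3.95 in arrays labelled Mxd1 KO and 4.20, 4.09 and 3.68 in WT arrays (centred).

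The ISG15 cycle attaches the ubiquitin-like protein ISG15 to targets and removes it, and its 3 measured genes Usp18, Ube2l6 and Herc6 had 5 h responses of 3.07 to 3.64 in cells labelled KO (centred). Usp18, the protease that removes ISG15 and also dampens signalling at IFNAR, had resting centred levels of 2.28, 2.12, 2.05 and 2.25 in KO and 2.02, 2.07, 1.98, 1.93 and 1.97 in heterozygous arrays of set 1. In set 2, Usp18 stood at 2.68, 2.52, 2.72, 2.71 and 2.84 in KO and 2.36, 2.24, 2.16, 2.24 and 2.51 in WT arrays (centred), without overlap. After 5 h, Usp18 had centred levels of 6.27, 6.01, 6.01, 5.80 and 5.92 in arrays labelled KO and 2.995, 5.68, 5.66, 4.24 and 5.94 in WT arrays. The resting difference was small beside the 5 h response, which was 9.87-fold in cells labelled KO. At 18 h, Usp18 had 4.66, 4.48 and 4.28 in arrays labelled Mxd1 KO and 4.52, 4.55 and 4.75 in WT arrays (centred).

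The Mx GTPases trap viral nucleocapsids. Mx1 had resting centred levels of 1.29, 1.29, 1.20 and 1.29 in KO and 1.43, 1.40, 1.22, 1.30 and 1.21 in heterozygous arrays of set 1. In set 2, Mx1 stood at 1.43, 1.52, 1.22, 1.44 and 1.497 in KO and 1.84, 1.57, 1.47, 1.45 and 1.92 in WT arrays (centred). After 5 h, Mx1 had centred levels of 3.92, 4.04, 3.59, 3.68 and 3.45 in arrays labelled KO and 1.19, 3.66, 3.74, 1.78 and 3.98 in WT arrays. The ranges overlapped between KO and heterozygous arrays in set 1 and between KO and WT arrays in set 2 and at 5 h. At 18 h, Mx1 had 2.83, 2.74 and 2.51 in arrays labelled Mxd1 KO and 2.94, 2.76 and 2.43 in WT arrays (centred). Mx2, its paralog, was 1 of 3 members that were lower in WT replicate 4 than in WT replicate 1 at 5 h, the others being Trim21 and Dtx3l.

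Nucleic acid sensors had 5 h responses in cells labelled KO of 0.86 (Ifi205) and 4.05 (Zbp1), and of at least 3.84 (Ifi213) and at least 2.70 (Ddx60, centred). Zbp1, which detects nucleic acids in the Z form and can trigger cell death, had resting centred levels of 2.02, 2.11, 1.58 and 1.86 in KO and 1.46, 1.98, 2.37, 1.69 and 1.68 in heterozygous arrays of set 1. In set 2, Zbp1 stood at 1.83, 1.999, 2.18, 1.89 and 2.37 in KO and 1.67, 1.88, 1.81, 1.88 and 1.97 in WT arrays (centred). After 5 h, Zbp1 had centred levels of 6.19, 6.05, 6.05, 5.99 and 6.11 in arrays labelled KO and 2.85, 5.98, 5.85, 4.83 and 6.10 in WT arrays. Against the KO median, WT replicate 4 was at -1.20 and WT replicate 1 at -3.18 (log2 signal). At 18 h, Zbp1 had 3.89, 3.49 and 3.53 in arrays labelled Mxd1 KO and 3.99, 3.99 and 3.72 in WT arrays (centred). Ifi205, another gene of the AIM2-like family, had resting centred levels of 5.51, 5.51, 5.45 and 5.41 in KO and 5.40, 5.46, 5.58, 5.41 and 5.49 in heterozygous arrays of set 1. In set 2, Ifi205 stood at 5.73, 5.96, 6.24, 5.67 and 5.89 in KO and 5.64, 5.72, 5.58, 5.75 and 5.66 in WT arrays (centred). After 5 h, Ifi205 had centred levels of 7.02, 6.93, 6.74, 6.74 and 6.75 in arrays labelled KO and 6.30, 6.70, 6.74, 6.40 and 6.63 in WT arrays. Both low WT arrays lay just below the other 8, at -0.44 and -0.34 against the KO median (log2 signal). At 18 h, Ifi205 had 5.56, 5.56 and 5.42 in arrays labelled Mxd1 KO and 5.08, 5.44 and 5.65 in WT arrays (centred), with a WT difference of -1.19 from 5 h. The AIM2-like genes are close paralogs, so their probes may share signal.

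Parp14 adds ADP-ribose to proteins and lies beside Parp9 and Dtx3l, whose products form a complex. Parp14 had resting centred levels of 1.48, 1.43, 1.44 and 1.52 in KO and 1.45, 1.75, 1.496, 1.48 and 1.22 in heterozygous arrays of set 1. In set 2, Parp14 stood at 1.86, 1.94, 2.05, 1.95 and 2.16 in KO and 1.86, 1.85, 1.67, 1.93 and 1.87 in WT arrays (centred). After 5 h, Parp14 had centred levels of 5.23, 5.16, 4.61, 4.88 and 4.59 in arrays labelled KO and 2.76, 4.97, 5.01, 2.89 and 5.22 in WT arrays. The 2 low WT arrays had almost the same Parp14 level. At 18 h, Parp14 had 2.99, 2.77 and 2.71 in arrays labelled Mxd1 KO and 2.83, 2.87 and 2.46 in WT arrays (centred).

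TRIM proteins are ubiquitin ligases, and the 3 listed here had 5 h responses of -0.0034 (Trim21), 1.08 (Trim30a) and 1.81 (Trim25) in cells labelled KO (centred). Trim30a, which in mouse restrains Toll-like receptor signalling, had resting centred levels of 4.78, 4.97, 4.78 and 4.88 in KO and 4.88, 4.86, 4.88, 4.79 and 4.83 in heterozygous arrays of set 1. In set 2, Trim30a stood at 5.49, 5.71, 5.66, 5.56 and 5.70 in KO and 5.52, 5.39, 5.47, 5.57 and 5.51 in WT arrays (centred). After 5 h, Trim30a had centred levels of 6.89, 6.73, 6.74, 6.75 and 6.72 in arrays labelled KO and 5.97, 6.62, 6.69, 6.23 and 6.80 in WT arrays. Between the resting sets (set 1 minus set 2), Trim30a shifted by -0.83 in Mycl KO cells and by -0.65 in the control groups. These shifts limit what its 5 h response of 1.08 in cells labelled KO can show. At 18 h, Trim30a had 5.39, 5.35 and 5.34 in arrays labelled Mxd1 KO and 5.12, 5.28 and 5.28 in WT arrays (centred), without overlap.

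PML nuclear bodies hold Pml, Sp100 and Daxx, with 5 h responses of 1.44 to 2.42 in cells labelled KO (centred). Pml, the scaffold of these bodies, had resting centred levels of 2.99, 3.01, 2.71 and 2.88 in KO and 2.78, 2.94, 3.19, 2.88 and 2.50 in heterozygous arrays of set 1. In set 2, Pml stood at 3.40, 3.64, 3.54, 3.64 and 3.78 in KO and 3.28, 3.25, 3.30, 3.28 and 3.39 in WT arrays (centred), without overlap. After 5 h, Pml had centred levels of 5.65, 5.42, 5.16, 5.30 and 5.38 in arrays labelled KO and 3.73, 5.19, 5.15, 4.54 and 5.44 in WT arrays. The span of the 8 concordant arrays was 5.15 to 5.65. At 18 h, Pml had 4.41, 4.26 and 4.23 in arrays labelled Mxd1 KO and 4.61, 4.55 and 4.37 in WT arrays (centred).

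Membrane and secreted members had 5 h responses of 2.25 (Ifitm3) to 4.72 (Ms4a4c) in cells labelled KO, and Rtp4, a receptor chaperone, had at least 4.78 (centred). Bst2, which tethers budding virions to the cell, had resting centred levels of 3.82, 3.64, 3.70 and 3.98 in KO and 3.64, 4.07, 3.93, 3.69 and 3.86 in heterozygous arrays of set 1. In set 2, Bst2 stood at 3.90, 3.85, 4.34, 4.25 and 4.49 in KO and 3.90, 3.93, 3.97, 3.92 and 3.94 in WT arrays (centred). After 5 h, Bst2 had centred levels of 6.48, 6.55, 6.64, 6.64 and 6.59 in arrays labelled KO and 4.19, 6.52, 6.37, 5.89 and 6.42 in WT arrays. WT replicate 1 lay much further from the other 8 arrays than WT replicate 4 did. At 18 h, Bst2 had 5.65, 5.65 and 5.51 in arrays labelled Mxd1 KO and 5.60, 5.47 and 5.63 in WT arrays (centred). Ifitm3, which stops viruses from fusing in endosomes, had resting centred levels of 4.68, 4.11, 4.81 and 5.24 in KO and 4.55, 5.25, 4.999, 4.40 and 4.73 in heterozygous arrays of set 1. In set 2, Ifitm3 stood at 4.43, 4.48, 4.85, 4.97 and 4.94 in KO and 5.07, 4.91, 5.07, 5.12 and 4.81 in WT arrays (centred). After 5 h, Ifitm3 had centred levels of 7.11, 7.07, 7.10, 6.97 and 7.13 in arrays labelled KO and 5.87, 6.93, 6.94, 6.78 and 6.91 in WT arrays. All 5 arrays labelled KO lay above all 5 WT arrays for Ifitm3. At 18 h, Ifitm3 had 6.17, 6.07 and 5.85 in arrays labelled Mxd1 KO and 5.86, 6.01 and 6.23 in WT arrays (centred). Ms4a4c, a gene of the MS4A family of membrane proteins, had resting centred levels of -0.32, -0.62, -0.23 and 0.14 in KO and -0.48, 0.10, -0.22, -0.29 and 0.09 in heterozygous arrays of set 1. In set 2, Ms4a4c stood at -0.34, 0.23, 0.18, -0.004 and -0.06 in KO and -0.50, -0.56, -0.18, -0.42 and -0.61 in WT arrays (centred). After 5 h, Ms4a4c had centred levels of 5.10, 4.71, 4.76, 4.50 and 4.61 in arrays labelled KO and 0.95, 4.30, 4.39, 2.53 and 4.50 in WT arrays. Its median in arrays labelled KO at 5 h was 26.3-fold above rest on the linear scale. At 18 h, Ms4a4c had 0.52, 0.67 and 0.32 in arrays labelled Mxd1 KO and 0.64, 0.73 and 0.98 in WT arrays (centred), and its WT difference from 5 h, -3.57, was the lowest of the 47 members.

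Irf9, the DNA-binding part of the complex that drives these genes, differed little between rest and 5 h, by 0.21 in cells labelled KO and 0.11 in WT cells (centred). Irf9 had resting centred levels of 3.14, 3.15, 3.06 and 3.01 in KO and 2.91, 3.02, 3.15, 3.02 and 2.93 in heterozygous arrays of set 1. In set 2, Irf9 stood at 3.27, 3.31, 3.28, 3.38 and 3.40 in KO and 3.20, 3.19, 3.14, 3.23 and 3.33 in WT arrays (centred). After 5 h, Irf9 had centred levels of 3.52, 3.57, 3.48, 3.58 and 3.31 in arrays labelled KO and 3.08, 3.31, 3.41, 3.10 and 3.50 in WT arrays. Rest and 5 h overlapped in both genotypes. At 18 h, Irf9 had 3.28, 3.17 and 3.09 in arrays labelled Mxd1 KO and 3.11, 3.24 and 2.94 in WT arrays (centred). Xaf1, which promotes cell death by blocking XIAP, had resting centred levels of 0.02, -0.05, 0.14 and 0.01 in KO and -0.01, 0.05, 0.02, 0.01 and -0.13 in heterozygous arrays of set 1. In set 2, Xaf1 stood at -0.12, -0.01, 0.07, -0.19 and 0.17 in KO and -0.01, -0.03, 0.14, -0.06 and -0.09 in WT arrays (centred). After 5 h, Xaf1 had centred levels of 3.48, 3.51, 3.02, 3.20 and 3.27 in arrays labelled KO and 0.44, 3.21, 3.23, 1.44 and 3.48 in WT arrays. Unlike Irf9, it did not overlap between 5 h and rest in cells labelled KO or in WT cells. At 18 h, Xaf1 had 1.81, 1.67 and 1.53 in arrays labelled Mxd1 KO and 1.91, 1.76 and 1.78 in WT arrays (centred). The other measured members of the last group, Helz2, Samd9l, Slfn5, Rnf213, Tdrd7, Tor3a and Epsti1, had 5 h responses of 0.85 (Epsti1) to 3.09 (Rnf213) in cells labelled KO.

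Genotype was compared within each set with limma on the log2 signals, with Benjamini-Hochberg adjustment over every tested gene and a threshold of 0.05. In resting cells of set 1 the members did not separate Mycl KO from heterozygous cells. None of the 43 members tested passed, 4 had an unadjusted p under 0.05, and 0.0214% of all 14023 genes passed (3 genes, against 1991 at an unadjusted p under 0.05). The median difference over the members was -0.0084 on the log2 scale (-0.0278 to 0.0136 without 1 array), against 0.0029 over all genes. The highest difference was that of Epsti1 with 0.19 ± 0.11 (SE, adjusted p = 0.445), and the lowest was Isg20, an RNA exonuclease, with -0.21 ± 0.09 (SE, adjusted p = 0.331). Epsti1 had log2 signals of 10.33, 9.88, 10.17 and 10.08 in KO arrays and 10.08, 9.97, 9.95, 10.01 and 9.58 in heterozygous arrays. Isg20 had 7.52, 7.77, 7.60 and 7.78 in KO arrays and 7.66, 8.004, 7.95, 7.73 and 8.05 in heterozygous arrays (log2 signal), and the groups overlapped for both genes. Ifit1, Ifi213, Ddx60 and Rtp4 did not pass the filter on low values at rest, so the count speaks only of the other 43.

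In set 2, 6 of the 43 members tested were higher in resting Mycl KO than in WT cells and 0 were lower, where 3.78% of all 14012 genes passed higher and 2.36% lower (6.14% in all). The 6 were Ms4a4c, Cmpk2, Slfn5, Usp18, Pml and Sp100. All 6 calls were lost in a fit over all 8 groups, which shares 1 spread among the sets, low WT arrays of set 3 included. Standard deviations of the 6 genes (centred level) were 0.46 (Sp100) to 1.56 (Ms4a4c) among WT arrays at 5 h. Among resting arrays of this set they ranged from 0.05 (Pml, WT) to 0.29 (Cmpk2, KO). The loss of the calls thus does not measure the spread of the resting arrays alone. With set 2 fitted alone, 18 of the 43 had an unadjusted p under 0.05, against 21.2% of all genes (2975). For 5 of the 43, all called, every KO array was above every WT array, which held for 3.74% of all genes. The median difference over the members was 0.0989, against 0.0078 over all genes, and 29 of the 43 were above 0, against 52.8% of all genes. Without WT replicate 3 the median was 0.0593.

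Markers of other cell types also differed in set 2. Of the cDC2 markers, 2 of 4 tested were higher in KO cells and 0 lower, namely the lectin gene Cd209a (1.37, adjusted p = 0.00597 by limma) and the integrin gene Itgam (0.44, adjusted p = 0.0072). The median centred level of the cDC2 markers was -0.24 to 0.02 in KO arrays and -0.74 to -0.31 in WT arrays, without overlap. Of the pDC markers, 2 of 6 were higher (Tcf4 by 0.50 and Ccr9 by 0.43) and 1 lower (Pacsin1, -0.54). Of the monocyte and macrophage markers, 1 of 7 was higher (Ccr2 by 0.55) and 2 lower, Spic (-0.58) and the receptor gene Cd14 (-1.42, adjusted p = 1.72e-06). Of the B cell markers, 1 of 4 was higher (Cd22 by 0.70) and 1 lower (Ms4a1, -0.58). None of the 4 neutrophil, 5 T and NK cell and 1 erythroid markers tested passed. Of the cDC1 markers, 3 of 12 were higher and 1 lower. The part of these differences in the count of 6 members was not tested.

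Ms4a4c had log2 signals of 5.27, 5.80, 5.75, 5.58 and 5.49 in KO arrays and 5.07, 5.02, 5.41, 5.17 and 4.96 in WT arrays. The difference was 0.45 ± 0.10 (SE, adjusted p = 0.018 by limma), and the groups overlapped in 1 KO array. Cmpk2 had 5.10, 5.14, 5.33, 5.49 and 5.78 in KO arrays and 4.79, 4.88, 5.06, 5.06 and 4.91 in WT arrays (log2 signal), a difference of 0.43 ± 0.11 (adjusted p = 0.0307). The groups did not overlap, but KO replicate 5 was the highest. Its call was lost without KO replicate 4 (adjusted p = 0.0706), KO replicate 5 (adjusted p = 0.0587), WT replicate 1 (adjusted p = 0.0872) or WT replicate 2 (adjusted p = 0.0729). The call of Ms4a4c was lost without WT replicate 1 (adjusted p = 0.0506). Slfn5, of the Schlafen family, had 8.51, 8.70, 8.51, 8.71 and 8.82 in KO arrays and 8.09, 8.13, 8.39, 8.38 and 8.23 in WT arrays (log2 signal), a difference of 0.40 ± 0.08 (adjusted p = 0.00853). Usp18 had 8.29, 8.08, 8.29, 8.29 and 8.39 in KO arrays and 7.93, 7.83, 7.75, 7.83 and 8.08 in WT arrays (log2 signal), a difference of 0.39 ± 0.07 (adjusted p = 0.00698). For both genes the lowest KO array lay above the highest WT array, for Usp18 only just. Pml had 9.003, 9.20, 9.11, 9.23 and 9.33 in KO arrays and 8.85, 8.84, 8.89, 8.87 and 8.96 in WT arrays (log2 signal), a difference of 0.30 ± 0.06 (adjusted p = 0.015). Sp100, another protein of the PML bodies, had 9.90, 10.02, 10.07, 9.89 and 9.99 in KO arrays and 9.61, 9.62, 9.76, 9.82 and 9.64 in WT arrays (log2 signal), a difference of 0.28 ± 0.06 (adjusted p = 0.0142). Neither gene overlapped between the groups, while the third gene of the bodies, Daxx, gave -0.01 ± 0.07 (adjusted p = 0.945).

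The lowest member in set 2 was Trim25, the ligase that acts with RIG-I. Among the 40 listed members with a promoter, it was the only one with CACGTG, against 8.09% of all genes. A link between this E-box and the difference was not tested. Trim25 had log2 signals of 8.22, 8.37, 7.91, 8.18 and 8.13 in KO arrays and 8.77, 8.38, 8.82, 8.42 and 8.28 in WT arrays. The difference was -0.37 ± 0.11 (SE, adjusted p = 0.0513), which narrowly missed the threshold, and 1 KO array reached into the WT range. The IFIT, OAS and Mx members gave no call in set 2, with differences of -0.1251 to 0.1417 for IFIT and OAS and of -0.2374 and -0.0181 for Mx1 and Mx2.

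**Figure D3:**
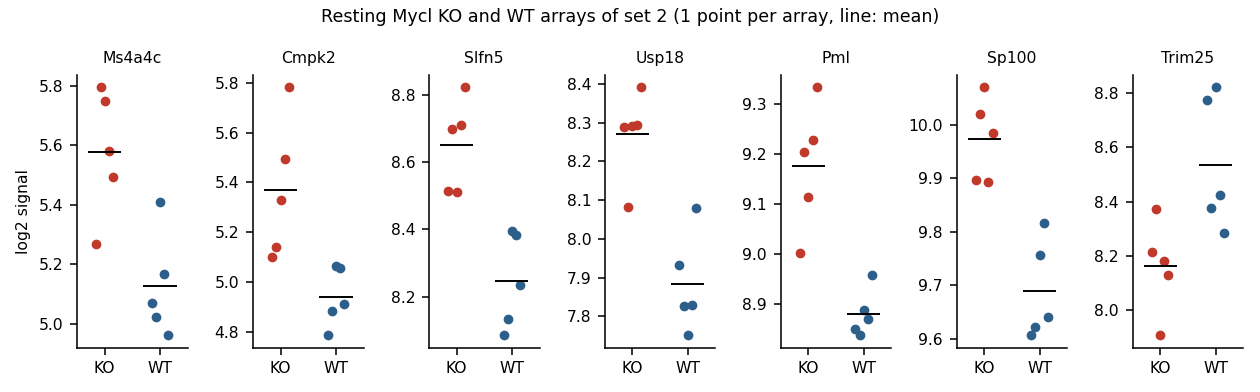
Log2 signal in resting Mycl KO (left) and WT (right) arrays of set 2 for the 6 members that passed limma and for Trim25, 1 point per array and a line at the group mean, with a separate scale for each gene that does not start at 0. The KO minus WT differences are 0.28 to 0.45 for the first 6 genes and -0.37 for Trim25.

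The 6 genes did not all behave alike in set 1, where the control was heterozygous. Usp18 differed by 0.19 ± 0.05 (SE, adjusted p = 0.218), with 8.82, 8.67, 8.58 and 8.78 in KO arrays and 8.58, 8.56, 8.51, 8.47 and 8.52 in heterozygous arrays (log2 signal), and the ranges met at 8.58. Cmpk2, Slfn5 and Pml gave 0.04, 0.02 and 0.05, and Sp100 and Ms4a4c gave -0.04 and -0.09. Over all 43 members, 28 had the same sign in both sets, 17 above and 11 below 0. The difference between the sets was not tested for these genes.

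With both resting sets in 1 fit, 2 of 43 members passed, where 4.43% of all 14639 genes did. Usp18 was higher in Mycl KO cells by 0.29 ± 0.05 (SE, adjusted p = 0.00178 by limma). That call held in all 19 fits that left out 1 array. The call of Usp18 was lost in the fit over all 8 groups (adjusted p = 0.686 by limma), where the shared spread includes the poly IC arrays. Trim25 was lower, with a difference of -0.26 ± 0.07 (SE, adjusted p = 0.0395), with 10.03, 10.18, 10.30 and 10.19 in KO and 10.21, 10.50, 10.34, 10.31 and 10.24 in heterozygous arrays of set 1 (log2 signal). Its call was lost in 10 of those 19 fits, with adjusted p-values of 0.0523 to 0.0857. The share of members called was thus close to the share of all genes called.

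After 5 h of poly IC, all 47 members had a higher mean in the arrays labelled Mycl KO than in WT arrays (49.6% of all genes did), but none passed limma, as 0.0% of all 14033 genes did. At an unadjusted p under 0.05 there were 8 of the 47, against 14.2% of all genes (1992). The median difference was 0.81 over the members, from 0.14 ± 0.25 (Epsti1, SE, adjusted p = 0.788) to 1.94 ± 0.92 (Ifit1, adjusted p = 0.361), against -0.0012 over all genes. Without WT replicates 1 and 4 the median was 0.07, the range was -0.28 to 0.32, and 34 of 47 were above 0, against 53.0% of all genes. Again 0 members passed, where 10 of all 14174 genes did, and 7 members had an unadjusted p under 0.05, against 9.17% of all genes. These 2 arrays were left out because the members are low on them, so a smaller median follows from the choice. Without the library labelled KO replicate 3, whose Mycl signal was near the WT level, the median was 0.79 and 0 members passed. For 3 members, Isg20, Ifitm3 and Ms4a4c, every array labelled KO lay above every WT array on the log2 signal scale, which held for 1.91% of all genes.

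Ifit1 had log2 signals of 11.55, 11.30, 10.96, 10.93 and 11.25 in arrays labelled KO and 6.09, 10.83, 10.82, 7.29 and 11.25 in WT arrays. WT replicates 1 and 4 were at 6.09 and 7.29, while the other 3 WT arrays lay within or just under the KO range. Epsti1 had 10.16, 10.27, 10.20, 10.16 and 9.78 in arrays labelled KO and 9.10, 10.36, 10.45, 9.59 and 10.36 in WT arrays (log2 signal). For Epsti1 the other 3 WT arrays lay above every array labelled KO.

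A fit over all 8 groups, which shares 1 spread among the sets, called 24 members and 1910 of the genes in set 3. In it, 6.15% of all genes passed higher. The differences themselves are the same in that fit, low WT arrays included, and the spread is what differs.

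The profile of the 2 low WT arrays was not a uniform shift. For 46 of the 47 members both lay below all other 8 arrays of the set, which held for 16.0% of all 14033 genes, and the exception was Trim21. The 2 arrays were picked for the low mean of these same members, so a high count follows in part from that choice. WT replicate 1 minus the KO median was -2.49 at the median of the members, from -5.16 (Ifit1) to -0.23 (Trim21). For WT replicate 4 it was -1.27, from -3.96 (Ifit1) to -0.28 (Ifitm3). The other WT replicates, 2, 3 and 5, had medians of -0.07, -0.12 and 0.10. WT replicate 4 was above WT replicate 1 for 44 members.

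Members differed in where WT replicate 4 lay. Isg20 had log2 signals of 11.88, 11.78, 11.80, 11.67 and 11.71 in arrays labelled KO and 7.96, 11.55, 11.59, 10.93 and 11.61 in WT arrays. Lgals9, a secreted galectin, had 11.19, 11.05, 11.06, 10.93 and 11.42 in arrays labelled KO and 8.30, 10.79, 10.79, 10.41 and 10.99 in WT arrays (log2 signal). Against the KO median, WT replicate 4 was at -0.84 (Isg20) and -0.65 (Lgals9), while WT replicate 1 was at -3.81 and -2.76. Mx2 had 8.87, 8.73, 8.13, 8.25 and 7.77 in arrays labelled KO and 5.38, 8.15, 7.96, 5.17 and 8.56 in WT arrays (log2 signal), and there replicate 4 was as low as replicate 1. Isg20, Lgals9 and Mx2 were chosen here after their values were seen.

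**Figure D4:**
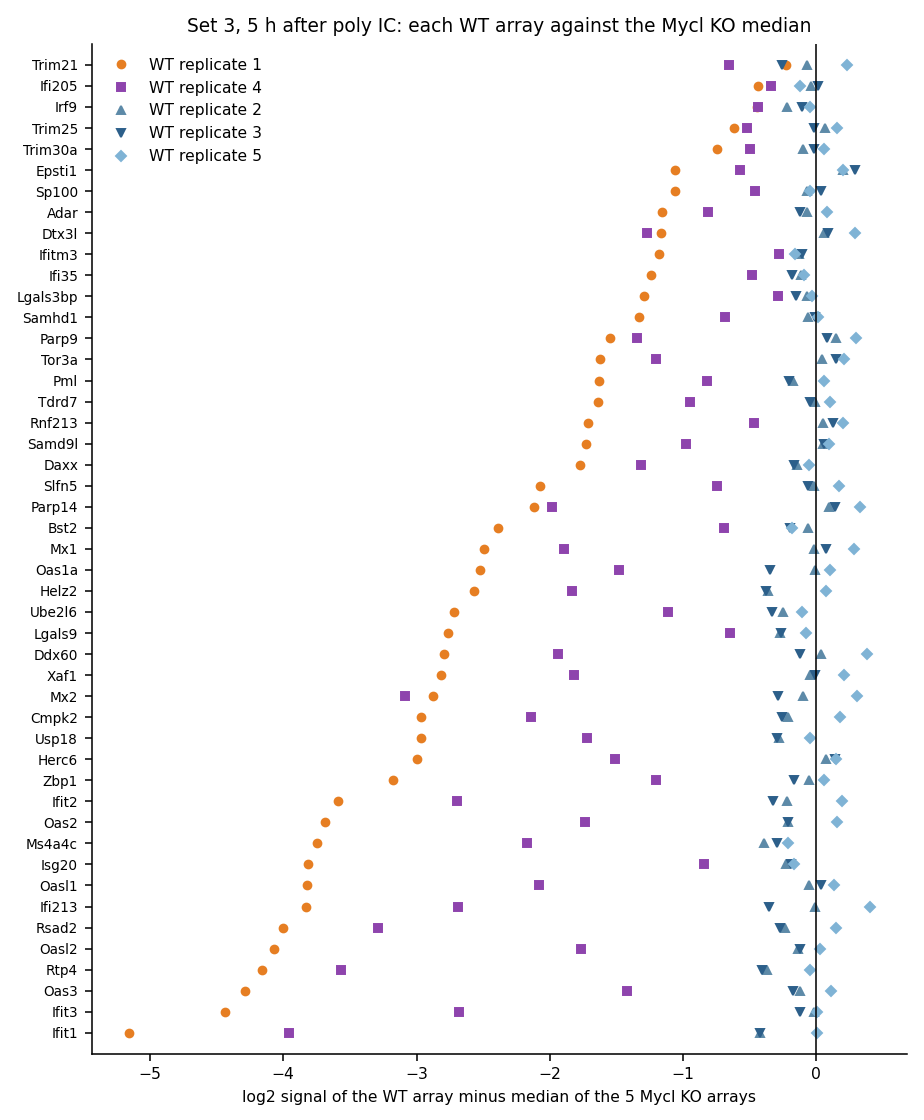
Log2 signal of each of the 5 WT arrays 5 h after poly IC minus the median of the 5 arrays labelled Mycl KO, for each measured member, ordered by WT replicate 1. WT replicates 2, 3 and 5 lie within -0.42 to 0.40 of 0, replicate 1 (circles) reaches -5.16 and replicate 4 (squares) -3.96, both for Ifit1.

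The difference of the Mycl effects, set 3 minus set 2, was also tested. None of the 47 members passed, as 0.0205% of all 14665 genes did, and 4 members had an unadjusted p under 0.05 (Ifit2, Trim25, Daxx and Ifitm3), against 13.0% of all genes. The median was 0.70, from 0.03 (Trim21, adjusted p = 0.954) to 1.86 (Ifit1, adjusted p = 0.413), and without the 2 low WT arrays it was -0.07. Ifit1, Ifi213, Ddx60 and Rtp4 entered this test through the 5 h arrays. They did not pass the filter at rest, so the set 2 part of their values may be near background. Trim21, the cytosolic antibody receptor, had 7.48, 7.46, 7.37, 7.54 and 7.27 in arrays labelled KO and 7.23, 7.39, 7.204, 6.80 and 7.69 in WT arrays of set 3 (log2 signal). In set 2 it had 7.56, 7.58, 7.53, 7.49 and 7.53 in KO and 7.34, 7.47, 7.11, 7.54 and 7.57 in WT arrays.

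At 18 h after poly IC the members did not separate the arrays labelled Mxd1 KO from WT. None of the 47 passed limma, as 0.071% of all 14080 genes did (10 genes, against 2236 at an unadjusted p under 0.05), and 11 members had an unadjusted p under 0.05 (15.9% of all genes). The median difference was -0.04 over the members, against -0.0023 over all genes, and 20 of the 47 were above 0, against 49.4% of all genes. Without 1 array the median was -0.0941 to 0.0316, above 0 without the array labelled KO replicate 3, and 14 to 25 members were above 0. The highest was Samd9l, an antiviral repressor of translation, with log2 signals of 9.24, 9.25 and 9.14 in arrays labelled Mxd1 KO and 8.59, 8.83 and 8.67 in WT arrays. Its difference was 0.51 ± 0.09 (SE, adjusted p = 0.101) and the groups did not overlap. The lowest difference was that of Oasl2, an OAS-like protein, with 9.42, 9.02 and 8.50 in arrays labelled Mxd1 KO and 10.04, 9.63 and 9.59 in WT arrays (log2 signal). Its difference was -0.78 ± 0.22 (SE, adjusted p = 0.202), again without overlap. Without WT replicate 2 of this set, 568 genes and 3 members passed, 2 higher and 1 lower, and Samd9l was among them (adjusted p = 0.0295). Every array labelled KO lay above every WT array for 4 members (11.8% of all genes) and below for 7 (10.8% of all genes).

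Members of 1 family went different ways at 18 h. In the OAS family Oasl2 was at -0.78 and Oas1a at 0.33, and 3 of 5 members were above 0. The 3 measured genes of the ISG15 cycle were all below 0 (-0.37 to -0.16). None of these passed the test.

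**Figure D5:**
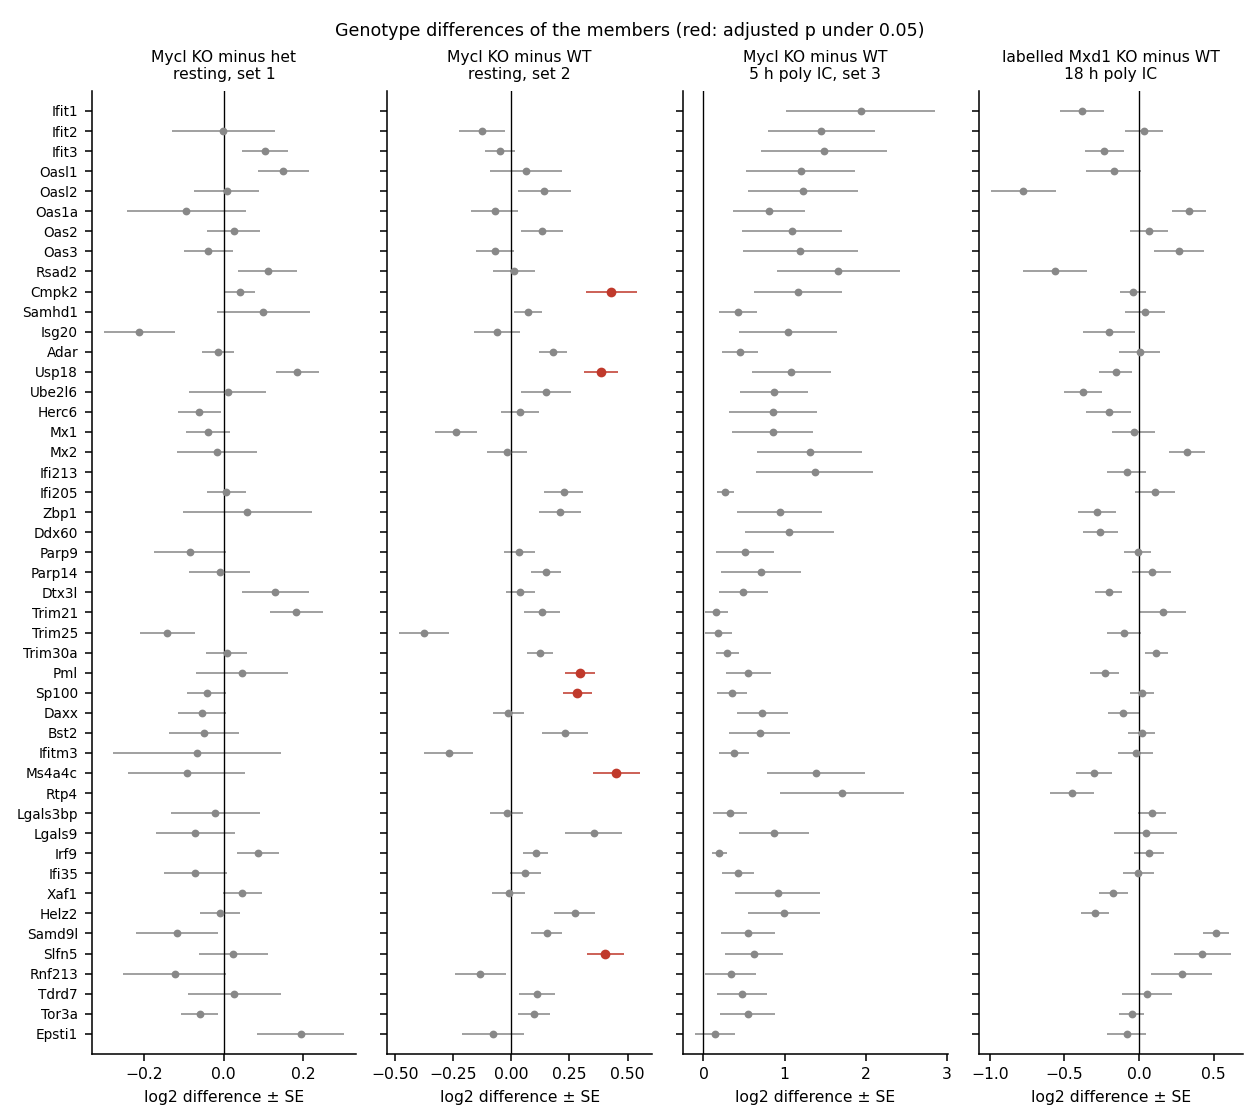
Difference in log2 signal with its standard error for each measured member in the 4 within-set comparisons, each panel with its own scale, with members that passed limma at an adjusted p under 0.05 in red. Red points occur in resting set 2 alone, at 0.28 to 0.45, all points lie right of 0 at 5 h with wide errors, and the points scatter on both sides of 0 in set 1 and at 18 h.

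The genes that carry the signal to these members were measured as well. Values for 21 genes of interferon induction and signalling were used. In resting set 2, 4 of the 19 tested were higher in Mycl KO cells and 0 lower, where 3.78% of all genes passed higher and 2.36% lower. They were Irf7 (0.43, adjusted p = 0.0101), the factor that amplifies interferon genes, and Stat2 (0.34, adjusted p = 0.0078). The others were Ifnar2 (0.29, adjusted p = 0.018), a chain of the receptor, and the sensor Tlr3 (0.26, adjusted p = 0.031). Tlr3 also passed over both resting sets (0.27, adjusted p = 0.000806), as 1 of 19, where 4.43% of all genes passed. The median over the 19 was 0.05 in set 2, against 0.0078 over all genes. In set 1 and at 18 h none of 19 passed, and at 5 h none of 21 passed, with a median of 0.25.

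The interferon genes themselves are not among the 47 members. Ifnb1, which encodes interferon beta, had log2 signals of 7.13, 8.09, 7.30, 7.19 and 8.31 in arrays labelled Mycl KO and 5.43, 6.28, 6.16, 5.67 and 6.80 in WT arrays at 5 h. Every array labelled KO, replicate 3 included, lay above every WT array, which held for 1.91% of all genes. The difference was 1.54 ± 0.30 (SE, adjusted p = 0.153). Ifna4, of the interferon alpha cluster, had 5.28, 6.38, 5.32, 5.54 and 6.45 in arrays labelled KO and 4.43, 4.79, 4.75, 4.43 and 5.20 in WT arrays (log2 signal), again without overlap, with a difference of 1.07 ± 0.26 (adjusted p = 0.229). Neither gene passed the test, and neither passed the filter on low values at rest. At 5 h, Ifna4 in WT replicates 1 and 4 was also under the filter level of those arrays. At 18 h, Ifnb1 had log2 signals of 4.61, 4.61 and 4.54 in arrays labelled Mxd1 KO and 4.76, 4.57 and 4.57 in WT arrays. Among WT arrays at 5 h, the 2 low arrays had the lowest Ifnb1. The other 3, WT replicates 2, 3 and 5, were also below all arrays labelled KO in Ifnb1. Against the KO median, the median over the 47 members was -0.07, -0.12 and 0.10 in these 3 arrays (log2 signal). Single members ranged from -0.42 to 0.40, and Isg20, Ifitm3 and Ms4a4c lay below every array labelled KO in all WT arrays. The relation between Ifnb1 and the interferon-stimulated genes was not tested.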

How the data were processed

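RNA from sorted splenic cDC1 was measured on 35 Affymetrix arrays. The authors deposited log2 values for 35556 transcript clusters, made with RMA in the Affymetrix Expression Console per the submitters' processing notes, with versions not given in the sources used here. RMA subtracts background, equalises arrays and summarises probes, so every difference is relative to the other transcripts of an array and a change in total RNA per cell is not seen. Spike-ins named in the design were not used here. Arrays of 1 set shared up to 1987.083 exactly equal values a pair on average, against 0.207 between sets, and array medians were 6.50 to 6.57, 5.55 to 5.60, 5.47 to 5.53 and 5.95 to 6.01 in the 4 sets, so tests were made only within sets or between differences taken within sets. No arrays were identical. Array number limits the precision.

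Clusters were named from the platform annotation: 21789 had 1 symbol, 1621 several and 12146 none listed, which gave 19938 genes. For 999 genes with several clusters the one with the highest mean was used. A gene was tested if the number of arrays in which it reached the 30th percentile of named clusters was no smaller than the smaller group. limma 3.58.1 in R 4.3.3 was used (lmFit, eBayes, two-sided, Benjamini-Hochberg, threshold 0.05) and was tested on simulated data. Levels across sets are centred on the array median, as description, and members under the filter at rest have lower bounds there, a choice made after seeing the data. Alternatives were no filter, the mean of clusters, array weights, all 8 groups in 1 fit, a replicate block, leaving out arrays and quantile normalization. Genes were named by role examples, every member called and the highest and lowest member of each comparison, except where stated. The members and lists were chosen with earlier results of these data known. Promoter sequences come from RefSeq (GRCm38.p6). A listed signalling gene is not reported here.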

Additional observations from a re-analysis of the deposited data

Results flagged for a closer look

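For each of the 47 members, 6 groups of 4 or 5 arrays were searched for an array far from the rest of its group on the centred scale. Such an array was found in 12 of 282 groups, and chance alone gives about 1 in 20. After 5 h of poly IC, WT replicate 1 was low for 5 members. It had a Bst2 level of 4.19, against 5.89 to 6.52 in the other WT arrays, and an Ifitm3 level of 5.87, against 6.78 to 6.94. Its level was 2.45 for Isg20, against 5.42 to 6.11, 4.61 for Lgals3bp, against 5.62 to 5.89, and 2.78 for Lgals9, against 4.90 to 5.49. In the same set the array labelled Mycl KO replicate 1 had a Trim30a level of 6.89, against 6.72 to 6.75 in the other arrays labelled KO, and replicate 5 had an Epsti1 level of 4.28, against 4.64 to 4.77.

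At rest, Mycl KO replicate 3 of set 1 had an Mx1 level of 1.20, against 1.29 in each of the others, and KO replicate 4 had a Ddx60 level of -2.13, where the highest of the others was -1.99 and the gap to the nearest was 0.919 of the range. Ddx60 did not pass the filter on low values at rest. KO replicates 1, 2 and 3 shared a Ddx60 log2 signal of 4.546, and KO replicates 1 and 4 shared 7.826 for Mx1. Pairs of arrays in set 1 had 1987.083 equal values on average. The part of such ties in these 2 flags was not tested. Heterozygous replicate 5 of set 1 had 2.93 for Rnf213, against 3.50 to 3.69, and 3.03 for Epsti1, against 3.43 to 3.52. In set 2, KO replicate 5 had a Ube2l6 level of 2.35, against 1.72 to 1.85 in the other KO arrays.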

How the results depend on the processing

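In resting set 2, the 6 members called became 10 with array weights and 0 with all 8 groups in 1 fit, and were 4 to 7 without 1 array, while all genes called were 861, 1286 with weights, 358 with all 8 groups and 408 to 1007 without 1 array. Over both resting sets the 2 members called became 0 with all 8 groups, 1 with the replicate block and 1 to 3 without 1 array. In set 1 the genes called were 3, against 141 with array weights. At 5 h, the count of members called was 24 with all 8 groups, and the median difference was 0.203 with array weights, 0.0712 without both low WT arrays and 0.36 to 1.05 without 1 array. Epsti1 turned to -0.168 with array weights, -0.277 without both low arrays and -0.0761 without WT replicate 1 (-0.0761 to 0.261 without 1 array). For set 3 minus set 2 the median was 0.047 with array weights, -0.0706 without both low arrays and 0.26 to 0.89 without 1 array, and Trim21 turned to -0.0412, -0.136 and, without 1 array, -0.0862 to 0.137. At 18 h, 0 to 3 members were called without 1 array, and all genes called were 10, against 235 with all 8 groups, 18 with array weights and 16 with the block. Across sets, leaving out 1 array (added after seeing the data) gave 2.20 to 2.74 for WT 5 h minus rest and -1.44 to -0.78 for 18 h minus 5 h (-0.78, -0.81 and -0.78 without WT replicate 2, 3 or 5 of set 3), which was -1.21 after quantile normalization. With the 4 members under the filter at rest at their bounds (also added), the 5 h minus rest median was 2.71 in cells labelled KO and 2.55 in WT cells. The cause was not tested.

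Same-numbered arrays of the groups of a set had correlations of -0.398 to 0.348 in their deviations from the group means. With 3 to 5 arrays a group, these values cannot show whether replicate numbers pair the samples. With the replicate block the members called were 0 in set 1, 6 in set 2, 0 at 5 h and 0 at 18 h, and Trim25 over both resting sets had an adjusted p of 0.0675. It changed no other call of a member.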
